A study of Mus musculus with 4 samples.

Results

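The integrins that bind extracellular matrix and the laminin chains of the basement membrane were examined in cultured mouse primary myoblasts with and without the DNA dioxygenase Tet2. The members were 19 integrin subunits outside the leukocyte-restricted group and 10 laminin chains, chosen by gene symbol. All 29 were found among the 24445 genes of the deposited RNA sequencing table. The WT group held 2 libraries from wild type C57BL/6 mice, and the Tet2 KO group held 2 libraries from C57BL/6 mice with a constitutive deletion of exon 3 of Tet2, so that every cell type of these animals carried it. In both groups the starting cells were satellite cells, the resident stem cells of muscle. They were sorted from hindlimb by the absence of propidium iodide, CD45, CD11b, CD31 and Sca1 and the presence of CD34 and integrin alpha 7. The sorted cells were grown on type I collagen in proliferation medium for at least 3 days, until they had become MyoD-positive myoblasts. The study's methods give young adult males as the default for its mice, and the number of animals behind a library is not given in the labels.

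Each gene had 1 deposited value in each group, in fragments scaled to transcript length in kilobases and to the number of mapped fragments (FPKM). FPKM is scaled by transcript length, so levels can be compared between genes. No value per library was used, so no value below carries an error and no difference was tested against the spread between replicates. The sequencing depth is unknown. Tet2 itself had 5.79 FPKM in Tet2 KO against 6.64 FPKM in WT, and this value over all exons does not show the deleted exon separately. The myoblast markers were high in both groups, with Myod1 at 313 FPKM in Tet2 KO against 336 FPKM in WT. The median log2 ratio of Tet2 KO to WT over the 11692 genes with a mean of at least 1 FPKM was -0.0044. Log2 ratios were computed on FPKM plus a pseudocount of 1, which makes the ratio of a low gene smaller, and fold values on FPKM without a pseudocount.

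Integrins are heterodimers of an alpha and a beta chain that span the plasma membrane and tie the extracellular matrix to the actin cytoskeleton. The alpha chain largely sets the ligand, which can be collagen, laminin or proteins with an Arg-Gly-Asp (RGD) motif such as fibronectin and vitronectin. Laminins are trimers of an alpha, a beta and a gamma chain that polymerise into the basement membrane around muscle fibres, and the laminin receptor integrin alpha 7 beta 1 anchors the fibre to it.

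Most integrin and laminin genes were within 1.5-fold between the groups, and 3 integrins of low level lay past it. Of the 21 members with a mean of at least 1 FPKM, 2 were past 1.5-fold higher in Tet2 KO (Itgb3 and Itga2) and 1 was past 1.5-fold lower (Itgb8). Over all 11692 genes at that level, 3.72% were past 1.5-fold higher and 2.89% past 1.5-fold lower, together 6.61%, against 14.3% of the 21 members. This share of the members rests on 3 genes. Of these, Itga2 was at 0.675 FPKM in WT and reached the filter only through its Tet2 KO value. All 3 had a mean under 10 FPKM, where 8 members lay, and 10.7% of all genes from 1 to under 10 FPKM were past 1.5-fold in either direction. Among the 13 members at 10 FPKM or more, 0 were past 1.5-fold. Since 3.73% of all genes at that level were, this count is near the background. The middle 90% of all ratios ran from -0.40 to 0.44 on the log2 scale, and their quartiles were -0.11 and 0.09. Of the members within 1.5-fold, Itga1, Itga4, Itga5, Itgb5, Lama4 and Lamb1 lay above the upper quartile, from 0.11 to 0.44. Itga3, Itga6, Itgb6, Lama5, Lamb2 and Lamb3 lay below the lower quartile, from -0.30 to -0.12. By definition many genes of any kind lie outside the quartiles. The medians of the 14 integrins and of the 7 laminin chains were -0.04 and -0.05 on the log2 scale. The other 8 members, Itga2b, Itga8, Itga9, Itga10, Itga11, Lama1, Lama3 and Lamc3, were below 1 FPKM in both groups.

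**Figure D1:**
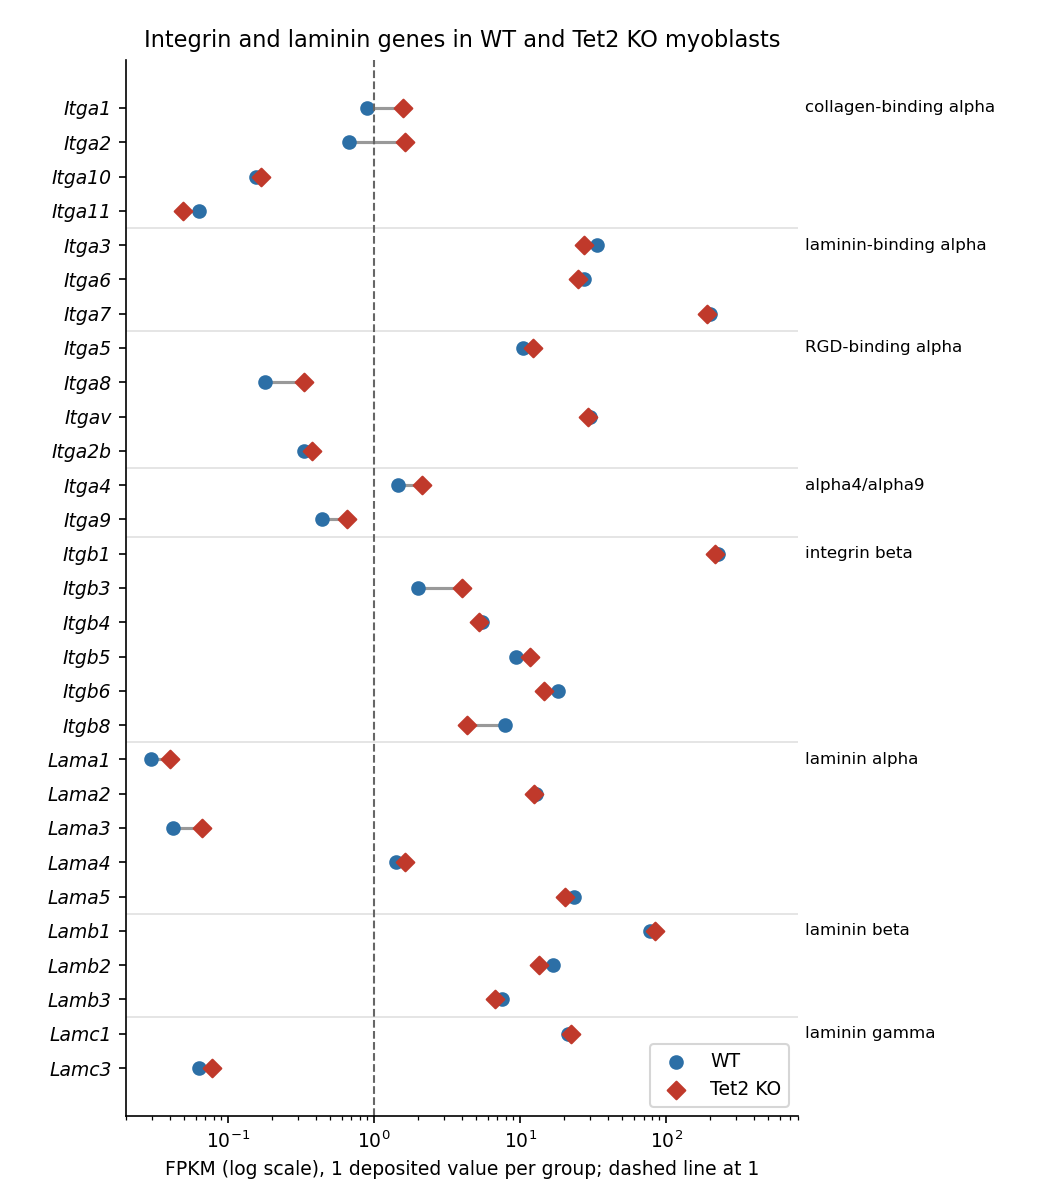
Deposited FPKM (x axis, log scale) of the 29 integrin and laminin genes (y axis), with a circle for WT and a diamond for Tet2 KO joined by a line; each point is 1 value per group, without an error. Itgb1 (215 and 227 FPKM) and Itga7 (190 and 199 FPKM) are the highest, and the longest lines among the 21 genes with a mean of at least 1 FPKM belong to Itga2, Itgb3, Itgb8 and Itga1.

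The promoters of 4 members are shown because the study concerns an enzyme that oxidises methylated cytosine at CpG sites: Itga2 and Itgb8, past 1.5-fold in opposite directions, Itga1, the neighbour of Itga2, and Itgb1, the most abundant member. Promoter sequences were those of RefSeq (GRCm38.p6), from a table that covered 20 of the 29 members; Itgb3 and Itga7 were not among them. The 250 bases before the transcription start are printed in the direction of transcription, with each CpG in capitals. Each was found once in the chromosome of its gene in mm9, the build of the deposited table. They span chr13:115722309-115722558 (minus strand) for Itga2, chr13:115892173-115892422 (minus strand) for Itga1, chr12:120476750-120476999 (minus strand) for Itgb8 and chr8:131209304-131209553 (plus strand) for Itgb1.
Itga2: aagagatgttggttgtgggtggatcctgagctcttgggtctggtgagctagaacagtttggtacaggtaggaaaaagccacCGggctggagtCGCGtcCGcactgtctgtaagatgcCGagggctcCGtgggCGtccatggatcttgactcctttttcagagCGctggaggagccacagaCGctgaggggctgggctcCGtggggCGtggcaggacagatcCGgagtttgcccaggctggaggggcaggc
Itga1: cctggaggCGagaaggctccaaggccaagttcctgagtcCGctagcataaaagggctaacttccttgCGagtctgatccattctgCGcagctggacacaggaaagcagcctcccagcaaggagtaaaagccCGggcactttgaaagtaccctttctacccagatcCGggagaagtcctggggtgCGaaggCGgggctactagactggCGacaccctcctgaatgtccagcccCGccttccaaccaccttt
Itgb8: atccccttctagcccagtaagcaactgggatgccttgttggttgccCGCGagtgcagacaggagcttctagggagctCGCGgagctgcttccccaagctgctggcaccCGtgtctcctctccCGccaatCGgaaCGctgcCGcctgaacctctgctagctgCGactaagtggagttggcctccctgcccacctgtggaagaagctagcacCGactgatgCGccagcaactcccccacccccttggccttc
Itgb1: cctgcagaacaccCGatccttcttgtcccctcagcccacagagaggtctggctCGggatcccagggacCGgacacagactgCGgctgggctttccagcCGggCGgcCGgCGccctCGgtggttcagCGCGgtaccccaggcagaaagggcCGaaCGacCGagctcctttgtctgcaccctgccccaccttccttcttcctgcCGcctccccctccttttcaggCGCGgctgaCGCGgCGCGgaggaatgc
The Itga2 and Itgb8 windows each held 12 CpG sites, the Itga1 window 10 and the Itgb1 window 21, against a median of 6 over 32851 RefSeq promoters. The ratio of observed to expected CpG was 0.56 for Itga2, 0.51 for Itgb8, 0.48 for Itga1 and 0.74 for Itgb1. Over all promoter windows its median was 0.37, and 34.0% of the windows had a ratio of at least 0.6. The E box, CANNTG, the motif bound by MyoD and myogenin, reads the same on both strands and was present in 66.2% of all promoter windows. It occurred 2 times in the Itgb8 window and 1 time in the Itga1 window, there as CAGCTG, a form found in 4271 of the 32851 windows, and 0 times in the Itga2 and Itgb1 windows. No DNA methylation data were analysed here.

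The laminin receptors made up most of the alpha chain transcripts. Itga7, the main laminin receptor chain of skeletal muscle and 1 of the 2 positive sort markers, lies on chromosome 10 from 128370869 to 128398044 in the deposited mm9 coordinates. It had 190 FPKM in Tet2 KO against 199 FPKM in WT, rank 464 of all genes by mean level. Its log2 ratio was -0.07. The annotation placed the end of Itga7 at 128395333, and the deposited interval also covers Mettl7b, which was at 0.628 and 0.379 FPKM. Itga6, a laminin receptor chain that pairs with Itgb1 or Itgb4, had 25.1 FPKM in Tet2 KO against 27.3 FPKM in WT. Itga3, which recognises laminins rich in the alpha 5 chain, had 27.4 and 33.4 FPKM, a log2 ratio of -0.28, and 6.56% of genes at 10 FPKM or more had a ratio at least as low. Of the same genes, 18.9% had a ratio at least as low as that of Itga6 and 30.5% as low as that of Itga7. All 3 laminin-binding chains were thus lower in Tet2 KO by less than 1.5-fold. Together they held 243 FPKM in Tet2 KO against 260 FPKM in WT. Gene-level values do not separate splice forms, so the muscle-specific forms of Itga7 and Itgb1 were not examined.

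Differentiation markers of the same cells were past 1.5-fold. All 10 listed genes, such as Myog, Myh3 and Acta1, were past 1.5-fold lower in Tet2 KO, against 2.89% of all genes. Their median on the log2 scale was -1.41. The ratios ran from -1.86 for Myh1 to -0.93 for Ckm. None of the 6 myoblast markers was past 1.5-fold, and their median was -0.10, with ratios from -0.27 for Des to 0.28 for Vcam1. Both lists were chosen with earlier results of these data known, so their counts describe the listed genes and are not an independent result.

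The collagen-binding alpha chains were scarce in these cells, which were grown on collagen. Itga2, a collagen receptor known from platelets and epithelia, lies on chromosome 13 from 115626120 to 115722249. It had 1.63 FPKM in Tet2 KO against 0.675 FPKM in WT, 2.41-fold higher in Tet2 KO, with a log2 ratio of 0.65 on the scale with the pseudocount. Of the 4803 genes with a mean from 1 to under 10 FPKM, 6.08% had a ratio at least as high. Its mean of 1.15 FPKM was close to the filter of 1 FPKM, which it reached only through its Tet2 KO value. Itga1, the collagen receptor chain encoded next to it, had 1.57 FPKM in Tet2 KO against 0.901 FPKM in WT. Its fold was 1.75 and its log2 ratio 0.44, short of 1.5-fold on the scale with the pseudocount. Itga1 also reached the filter only through its Tet2 KO value. The deposited intervals of both genes lay 26040 bases apart. Pelo, a gene inside Itga1 on the same strand (115878565 to 115880396), was at 10.7 and 9.31 FPKM, and fragments of the overlap could have been assigned to either gene. Mocs2, 6492 bases from Itga2 on the other side, was at 17.7 FPKM in Tet2 KO against 19.5 FPKM in WT. The remaining collagen receptors, Itga10 and Itga11, were at 0.169 and 0.0489 FPKM in Tet2 KO and at 0.155 and 0.0628 FPKM in WT. All 4 chains together came to 3.42 FPKM in Tet2 KO against 1.79 FPKM in WT.

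Among RGD-binding alpha chains, the ubiquitous Itgav and Itga5 were the ones expressed. Itgav, which pairs with several beta chains, had 29.2 FPKM in Tet2 KO against 30.0 FPKM in WT. Itga5, the fibronectin receptor chain, had 12.3 and 10.5 FPKM, a log2 ratio of 0.22. Itga2b, the platelet fibrinogen receptor chain, was at 0.374 FPKM in Tet2 KO against 0.332 FPKM in WT, and Itga8, the nephronectin receptor chain, at 0.332 and 0.179 FPKM. Itga4, a receptor for Vcam1 and fibronectin, had 2.12 FPKM in Tet2 KO against 1.46 FPKM in WT, a log2 ratio of 0.34. Its relative Itga9, a tenascin receptor chain, was below 1 FPKM, at 0.654 and 0.438 FPKM.

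Itgb1, the common partner of most matrix-binding alpha chains, was the most abundant member. It lies on chromosome 8 from 131209554 to 131257479 and had 215 FPKM in Tet2 KO against 227 FPKM in WT, a log2 ratio of -0.07. It held 84.3% of the summed FPKM of the 6 beta chains in Tet2 KO and 84.1% in WT. Itga7 held 65.3% of the summed FPKM of the 13 alpha chains in Tet2 KO and 65.4% in WT. The receptor make-up at transcript level was therefore led by the same pair in both groups. Itgb4, the partner of Itga6 in hemidesmosomes, was at 5.26 and 5.44 FPKM.

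Itgb3 and Itgb8, past 1.5-fold in opposite directions, both pair with Itgav. Itgb3, the beta chain of the vitronectin receptor and of the platelet fibrinogen receptor, lies on chromosome 11 from 104469314 to 104531785. It had 4.03 FPKM in Tet2 KO against 1.99 FPKM in WT, 2.02-fold higher, with a log2 ratio of 0.75. Of the genes from 1 to under 10 FPKM, 5.27% had a ratio at least as high. Myl4, its neighbour 20781 bases away and an embryonic myosin light chain, was in the other direction, at 274 FPKM in Tet2 KO against 681 FPKM in WT. Itgb8, which pairs with Itgav and is known for activating latent TGF-beta, lies on chromosome 12 from 120401276 to 120476749. It had 4.30 FPKM in Tet2 KO against 7.93 FPKM in WT, 1.84-fold lower in Tet2 KO, with a log2 ratio of -0.75. Of the genes from 1 to under 10 FPKM, 2.69% had a ratio at least as low. Itgb5, another vitronectin receptor chain, had 11.8 FPKM in Tet2 KO against 9.30 FPKM in WT, and Itgb6, a second activator of latent TGF-beta, had 14.6 and 18.2 FPKM. Their log2 ratios were 0.31 and -0.30, within 1.5-fold. Of the genes at 10 FPKM or more, 3.90% had a ratio at least as high as that of Itgb5 and 5.63% a ratio at least as low as that of Itgb6. The summed FPKM of these 4 beta chains, a grouping made after the values were seen, was 34.7 in Tet2 KO and 37.5 in WT. Within the sum Itgb3 held 11.6% in Tet2 KO and 5.32% in WT, Itgb5 33.9% and 24.8%, Itgb6 42.1% and 48.7%, and Itgb8 12.4% and 21.2%. Itgb8 was thus well above Itgb3 in WT and at nearly the same level in Tet2 KO.

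**Figure D2:**
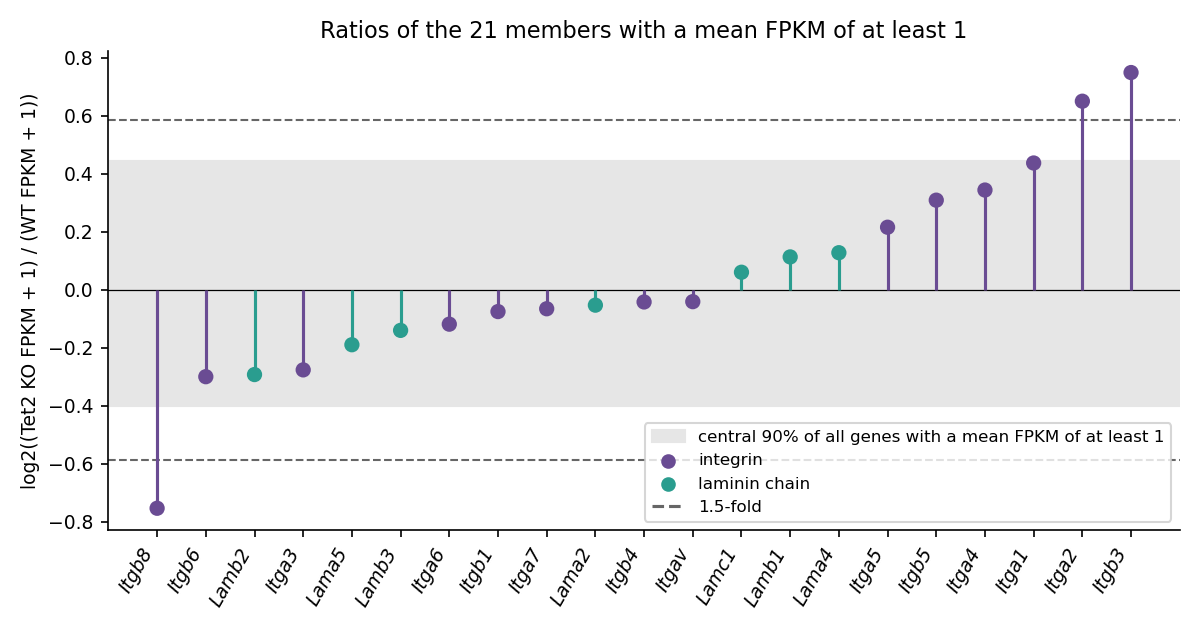
Log2 ratio of Tet2 KO to WT on FPKM + 1 (y axis) for the 21 integrin and laminin genes with a mean of at least 1 FPKM (x axis), coloured by family, with the central 90% of all 11692 genes in grey and 1.5-fold as dashed lines. Itgb8 at -0.75 and Itga2 and Itgb3 at 0.65 and 0.75 lie past the lines, and all 7 laminin chains lie inside the grey band.

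Leukocytes or platelets also express Itga2 and Itgb3. Leukocyte transcripts were higher in Tet2 KO, while the platelet and megakaryocyte markers were mixed. All 10 leukocyte markers, a list chosen with earlier results of these data known, were past 1.5-fold higher, against 3.72% of all genes. Their log2 ratios ran from 0.88 for Cd14 to 2.07 for Lyz2, and their summed level was 461 FPKM in Tet2 KO against 118 FPKM in WT. Single markers ran from 3.80 to 253 FPKM in Tet2 KO and from 1.36 to 59.5 FPKM in WT, with Lyz2 as the most abundant. Of the 7 leukocyte integrin chains, the 3 with a mean of at least 1 FPKM were past 1.5-fold higher, among them Itgam, at 10.1 FPKM against 2.09 FPKM in WT, and Itgb2, at 9.37 FPKM against 2.25 FPKM in WT. Of the 6 platelet and megakaryocyte markers, Pf4 was at 27.6 FPKM in Tet2 KO against 6.18 FPKM in WT and was past 1.5-fold higher. Ppbp, with a mean under 1 FPKM, was at 1.22 and 0.318 FPKM, and with no filter on low values it was also past 1.5-fold higher. Gp5 was at 1.12 and 0.840 FPKM, Gp1ba was at 1.14 and 1.54 FPKM, and Gp9 and Gp1bb were below 1 FPKM in both groups. The part of these cells in the integrin values was not tested. In bulk RNA, a different number of such cells and a different RNA content per cell cannot be told apart.

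Markers of epithelial, Schwann, endothelial, mural and fibroblast cells were also examined. The epithelial markers Epcam, Cdh1, Krt5, Krt14 and Krt8 were at or below 0.134 FPKM in both groups, and Krt18 was at 1.83 FPKM in Tet2 KO against 2.65 FPKM in WT. The Schwann cell markers Sox10, Mbp and S100b were below 1 FPKM in both groups. Of the 6 endothelial markers, 5 were below 1 FPKM and Pecam1 was at 1.48 and 1.63 FPKM. Of the 6 pericyte and smooth muscle markers, Rgs5, Myh11 and Kcnj8 were at or below 0.499 FPKM in both groups. Of the 3 with a mean of at least 1 FPKM, Acta2 and Abcc9 were past 1.5-fold lower in Tet2 KO, against 2.89% of all genes. This count was 1 with a mean of at least 5 FPKM and 0 at 2-fold. Acta2 was at 146 FPKM in Tet2 KO against 236 FPKM in WT and Abcc9 at 0.770 and 1.67 FPKM, and Cspg4 had a log2 ratio of -0.43. Whether the Acta2 transcripts came from mural cells was not tested. Of 7 fibroblast markers, the 6 with a mean of at least 1 FPKM had a ratio above 0. Dcn, at 7.04 FPKM against 3.15 FPKM, was past 1.5-fold but not 2-fold higher on the scale with the pseudocount. Pdgfra, at 1.91 FPKM against 1.06 FPKM, was past 1.5-fold with a pseudocount of 0.1, with none and in TPM. Col3a1 was at 171 FPKM in Tet2 KO against 152 FPKM in WT. Ly6a, which encodes the negative sort marker Sca1, was at 288 FPKM in Tet2 KO against 278 FPKM in WT after culture.

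Apart from Lamb3, a partner of the epithelial chain Lama3, the laminin chains of the myoblasts were those of muscle and general basement membranes. None of the 7 with a mean of at least 1 FPKM was past 1.5-fold. Lama5 encodes the broadly expressed alpha 5 chain and lies on chromosome 2 from 179911078 to 179960564. Its level was 20.4 FPKM in Tet2 KO against 23.4 FPKM in WT. Lama2, the chain of adult muscle laminin whose loss causes congenital muscular dystrophy, had 12.4 and 12.9 FPKM. Lama4, a chain of vessel and muscle laminins, had 1.62 and 1.40 FPKM. Lama5 thus held 59.1% of the alpha chain FPKM in Tet2 KO and 61.9% in WT, and Lama2 35.9% and 34.1%. The embryonic chain gene Lama1 was at 0.0400 FPKM in Tet2 KO against 0.0299 FPKM in WT, and Lama3, the alpha chain of epithelial anchoring laminin, at 0.0665 and 0.0422 FPKM.

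Lamb1, the general beta chain, had 84.0 FPKM in Tet2 KO against 77.5 FPKM in WT and was the most abundant laminin transcript, at rank 1181 of all genes. Lamb2, the beta chain enriched at the neuromuscular synapse, had 13.5 and 16.7 FPKM, a log2 ratio of -0.29, the lowest of the 7 laminin ratios. Of the genes at 10 FPKM or more, 5.85% had a ratio at least as low. The share of Lamb1 in the beta chain FPKM was 80.6% in Tet2 KO and 76.2% in WT, and that of Lamb2 12.9% and 16.4%. Lamb3 had 6.71 and 7.50 FPKM, while its trimer partner Lama3 was near 0. Lamc1, the gamma chain of most laminins, had 22.2 FPKM in Tet2 KO against 21.2 FPKM in WT, and Lamc3 was at 0.0776 and 0.0636 FPKM. Summed over the chains of a class, beta chains came to 104 FPKM in Tet2 KO, alpha chains to 34.5 FPKM and gamma chains to 22.2 FPKM. In WT the same sums were 102, 37.7 and 21.3 FPKM, in the same order.

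**Figure D3:**
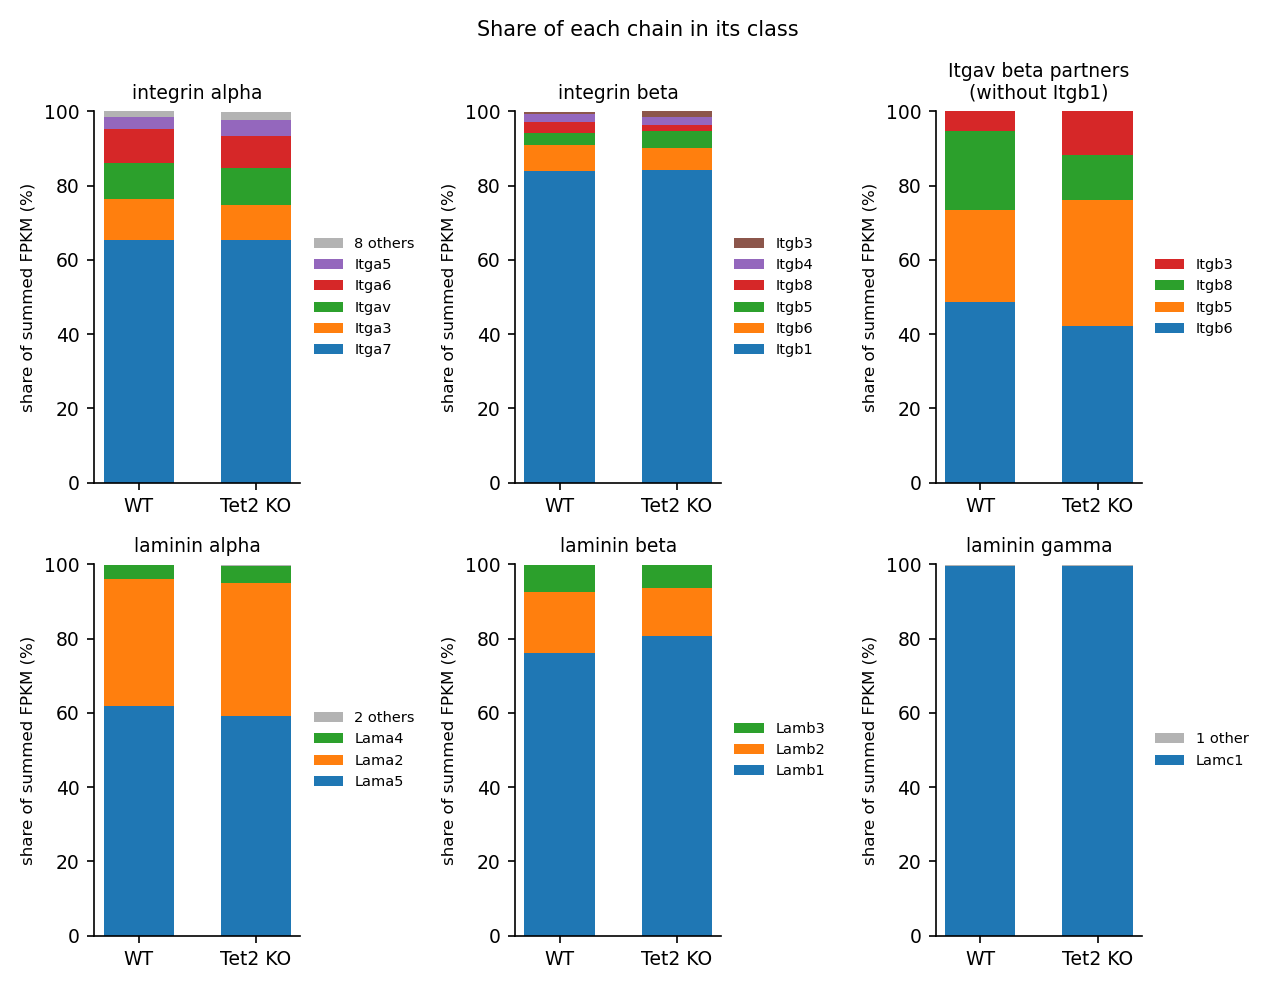
Share of each chain (colours) in the summed FPKM of its class (y axis, percent) in WT and Tet2 KO, 1 value per group; chains under 1% in both groups are drawn together in grey. Itga7, Itgb1, Lama5, Lamb1 and Lamc1 lead their classes in both groups, and among the Itgav beta partners Itgb3 goes from 5.32% to 11.6% and Itgb8 from 21.2% to 12.4%.

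Among partners of the laminins in the basement membrane, Ntn4, Nid1 and Nid2 lay past 1.5-fold. Of 17 listed genes 11 had a mean of at least 1 FPKM, of which 2 were past 1.5-fold higher and 1 lower (27.3%, against 6.61% of all genes), and their median was -0.14. The other 8, such as Sparc and both collagen IV genes Col4a1 and Col4a2, were within 1.5-fold. With a mean of at least 5 FPKM, or at 2-fold, the counts were 1 higher and 0 lower. Ntn4, a netrin that binds the laminin gamma chain and hinders laminin assembly, had 7.76 FPKM in Tet2 KO against 1.18 FPKM in WT, 6.55-fold higher. Nid1 and Nid2, the nidogens that link laminin to collagen IV, lay in opposite directions. Nid1 had 18.7 FPKM in Tet2 KO against 9.83 FPKM in WT, a log2 ratio of 0.86, and Nid2 had 2.98 and 6.94 FPKM, a log2 ratio of -0.997. Among 10 other laminin receptors and receptor-associated proteins, 1 was past 1.5-fold (10%, near the 6.61% of all genes, and 0 at 2-fold). This was the laminin alpha 5 receptor gene Bcam, with 4.19 FPKM in Tet2 KO against 7.77 FPKM in WT. Dag1, which encodes dystroglycan, had 14.4 and 19.3 FPKM, a log2 ratio of -0.39. The highest ratio of this list was that of the syndecan gene Sdc4, 0.24.

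Most genes that link integrins to actin were within 1.5-fold. Of 21 focal adhesion genes with a mean of at least 1 FPKM, 2 were past it (9.52%, against 6.61% of all genes), and the median was 0.02. Tln1 and Ilk were among the 19 within it. The highest ratio was 0.29, for Actn4. Both genes past 1.5-fold had a mean above 10 FPKM, a level where 3.73% of all genes were past it in either direction. Both were lower, also at 2-fold, and belong to striated muscle. They were Itgb1bp2, encoding melusin, which binds the Itgb1 tail, with 11.9 FPKM in Tet2 KO against 33.8 FPKM in WT, and Nrap, an anchoring protein of myofibril assembly, with 9.81 and 33.5 FPKM. Of 15 integrin ligand genes, 3 were past 1.5-fold higher (1 at 2-fold) and 0 lower, against 3.72% and 2.89% of all genes, and the median was 0.17. Tnc, which encodes the ligand tenascin C, had 305 FPKM in Tet2 KO against 151 FPKM in WT. Spp1, encoding the RGD ligand osteopontin, had 1938 and 1115 FPKM, and Col1a2, a chain of collagen I, had 15.8 and 8.71 FPKM. The lowest ratio was that of Postn, -0.50.

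**Figure D4:**
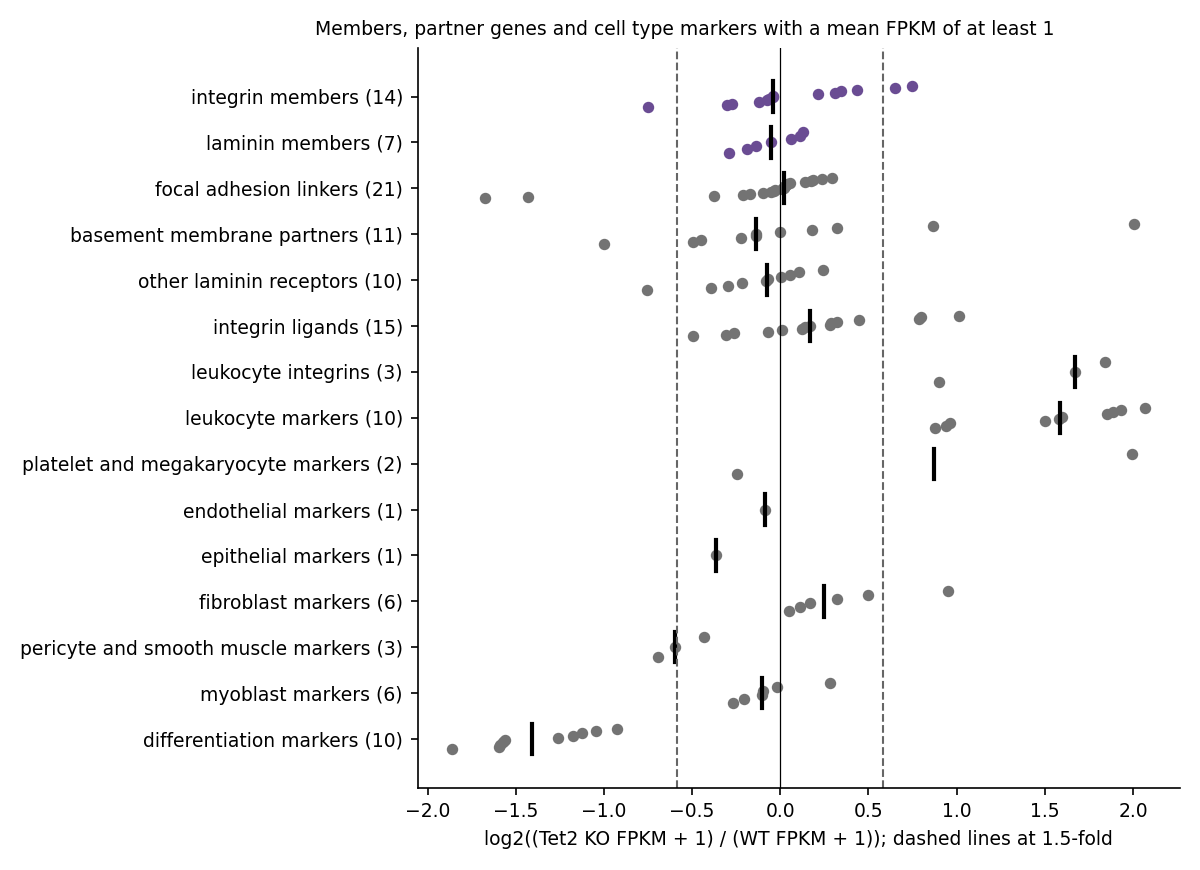
Log2 ratio of Tet2 KO to WT on FPKM + 1 (x axis) for each gene with a mean of at least 1 FPKM (points) in the integrin and laminin members, the partner lists and the marker lists (y axis, number of genes in brackets), with the median as a black bar and 1.5-fold as dashed lines. The members centre near 0, the 10 leukocyte markers lie from 0.88 to 2.07 and the 10 differentiation markers from -1.86 to -0.93.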

How the data were processed

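RNA of WT and Tet2 KO primary myoblasts was sequenced from TruSeq libraries, 2 per group; the kit does not mark strand. The authors trimmed adapters and filtered low quality reads, aligned read pairs to mm9 with TopHat2 2.0.13 and estimated expression with Cuffdiff 2.2.1; the gene annotation is not given in the sources used here. The deposited FPKM table holds 1 value per gene and group, which was read as a combination of both libraries. Its remaining numeric columns hold the authors' own comparison (a log2 ratio of WT over Tet2 KO, a test statistic, a p-value and a q-value) and were not used. No test was run, because no value per library was used, and depth is unknown.

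The ratio log2((Tet2 KO FPKM + 1) / (WT FPKM + 1)) was computed for every gene. Genes with a mean of at least 1 FPKM were counted when past 1.5-fold. Alternatives were a pseudocount of 0.1 or none, no filter, a mean of at least 5 FPKM, TPM, median centring and 2-fold. The counting was tested on simulated data. The members and the partner and marker lists were chosen with earlier results of these data known. Outside the members, the rule named the genes with the highest and lowest ratio of each list and the most abundant marker; other genes, such as Dag1 and the neighbours, were named after their values were seen. Some listed items are not reported here. Coordinates are those of the table with 1 added to each start, since 43.8% of starts then equalled the start in GENCODE vM1, an annotation of the same build, against 2.56% without. The intervals of the table can span neighbouring genes. Python 3.11.15, numpy 2.4.6, pandas 2.3.3 and matplotlib 3.10.9 were used.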

Additional observations from a re-analysis of the deposited data

How the results depend on the processing

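No paired analysis was possible because the table holds 1 value per group and none per library; leaving out each library was not run for the same reason. The counts of 2 members past 1.5-fold higher and 1 lower were the same with no filter, in TPM and after median centring, and the genes were Itga2, Itgb3 and Itgb8 each time. With a pseudocount of 0.1, or with none, Itga1 was added and 3 members were higher and 1 lower. With a mean of at least 5 FPKM the count higher was 0, since Itga2 and Itgb3 lie below that level, and Itgb8 was the 1 member lower. With 2-fold in place of 1.5-fold the counts were 0 higher and 0 lower. Without a pseudocount the log2 ratios of Itga2, Itgb3 and Itgb8 were 1.27, 1.02 and -0.88. The medians moved by less than 0.1 throughout, but with no filter on low values they turned from -0.04 to 0.02 for integrins and from -0.05 to 0.02 for laminins. Depth is unknown, so the precision of low values could not be given. Counts of other lists that changed by more than a factor of 1.5, or to or from 0, are given beside those lists. Smaller changes were not. At 2-fold, 7 leukocyte markers and 2 leukocyte integrins were higher and 9 differentiation markers lower. With a mean of at least 5 FPKM, 8 leukocyte markers were higher. With no filter, 4 leukocyte integrins were higher. With no pseudocount, 4 integrin ligands were higher and 3 pericyte and smooth muscle markers lower.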
